A study of Oryza sativa with 10 samples.

Results

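The peaks around the rice centromeres are the capture peaks whose midpoint lay within 1 Mb of 1 point on each of the 12 chromosomes. The points, in Mb, were 16.7 on chromosome 1, 13.6 on 2, 19.4 on 3, 9.7 on 4, 12.4 on 5, 15.3 on 6, 12.1 on 7, 12.9 on 8, 2.8 on 9, 8.2 on 10, 12 on 11 and 11.9 on 12. They were set by position and not by any measured value. The windows held 9426 of 136841 peaks, of which 3710 came from BioCyTASQ in vitro, 3307 from BioTASQ in vivo and 2409 from a list deposited for both BG4 and BioTASQ in vitro. How closely each point marks the functional centromere was not analysed here, since the files carry no annotation of centromeric repeats.

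The study captured G-quadruplex DNA from seedlings of the rice cultivar Nipponbare aged 2 weeks, after fixation with 1% formaldehyde for 10 min. BioCyTASQ and BioTASQ are related biotin-carrying small-molecule baits that were recovered on streptavidin beads. The 10 libraries formed 7 groups: BioCyTASQ in vitro, BioTASQ in vivo and BioTASQ in vitro with 2 libraries each, and biotin alone and input, each with 1 library in vitro and 1 in vivo. All groups share the cultivar, age and fixation, and the labels do not say how the vitro and vivo material differed. No library was labelled BG4, an antibody against G-quadruplexes, and the BG4 list held the same 29469 rows as the BioTASQ in vitro list, so the rows of the 2 files go by the name BG4/BioTASQ list. It is counted with the in vitro lists because the BioTASQ file is named so. Its peak names read K_PEG_flag, which no library label explains. Which capture the rows came from cannot be told, so BioTASQ in vivo and this list cannot be taken as 1 bait in 2 conditions.

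A G-quadruplex is a stack of guanine quartets that a guanine-rich strand can fold into. Centromeres carry the histone variant CENH3, on which the kinetochore is built. In rice their core consists of arrays of the CentO satellite with centromeric retrotransposons, and the core is flanked by pericentromeric heterochromatin that is rich in retrotransposons and poor in genes. Arrays of near-identical repeats are hard to assemble and to map short reads to, so peaks inside them can be lost or shared between copies.

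Each list was deposited once for a capture and not for each library, so no value has an error between replicates. Errors below are the spread over the 12 chromosomes, which are stretches of the same genome and not repeats of the experiment. Tests are exact two-sided sign-flip permutation tests over the chromosomes, pairing the window with the rest of its chromosome, and 0.000488 is the smallest p they can give. Depth per library is unknown. The lowest control level that could be recovered from a list was 8.14 fragments in the BioCyTASQ list, 15.7 in the in vivo list and about 2.42 in the BG4/BioTASQ list.

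The in vitro lists were denser around the centromeres than in the rest of the chromosomes, and the in vivo list was sparser. The windows made up 6.43% of the 373 Mb that the lists span. They held 7.44% of the BioCyTASQ in vitro peaks and 8.18% of the BG4/BioTASQ peaks, but 5.75% of the BioTASQ in vivo peaks.

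BioCyTASQ in vitro had 124 to 190.5 peaks per Mb in the windows (median 153), against 116 to 145 (median 137) in the rest. The groups overlapped, and the windows of chromosomes 3, 4, 5, 8, 10 and 12 lay above the rest of any chromosome. The mean was 155 ± 22.1 peaks per Mb in the windows and 133 ± 9.74 in the rest (SD, n = 12 chromosomes). The log2 ratio was 0.20 (SD 0.17, higher on 10 of 12 chromosomes, exact p = 0.00244, and 0.00244 when adjusted by Benjamini-Hochberg over the 3 lists). Among the peaks with the higher fold enrichment alone, divided at the median of the list, the windows were not denser: they had 62.7 and the rest 67.2 peaks per Mb (log2 ratio −0.12, adjusted p = 0.0674, exact).

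BioTASQ in vivo had 114.5 to 154.5 peaks per Mb in the windows (median 141), against 144 to 165 (median 156) in the rest. All but 5 of the windows, those of chromosomes 3, 5, 9, 10 and 12, lay below the rest of any chromosome. The mean was 138 ± 13.9 peaks per Mb in the windows and 155 ± 6.75 in the rest. The log2 ratio was −0.17 (SD 0.15, lower on 11 of 12 chromosomes, p = 0.00244, exact, adjusted p = 0.00244). Among its peaks with the higher fold enrichment the ratio was −0.33, with 62.5 peaks per Mb in the windows and 77.6 in the rest.

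The BG4/BioTASQ list had 85.5 to 122 peaks per Mb in the windows (median 103), against 73.5 to 82.5 (median 78.3) in the rest. The groups did not overlap, and every window lay above the rest of every chromosome. The mean was 100.4 ± 10.6 peaks per Mb in the windows and 77.9 ± 3.39 in the rest, a log2 ratio of 0.36 (SD 0.13, higher on 12 of 12 chromosomes, p = 0.000488, exact, adjusted p = 0.00146). Among its peaks with the higher fold enrichment the ratio was 0.25 (higher on 9 of 12 chromosomes, adjusted p = 0.00659, exact). These peaks numbered 46.8 per Mb in the windows and 39.0 per Mb in the rest.

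**Figure D1:**
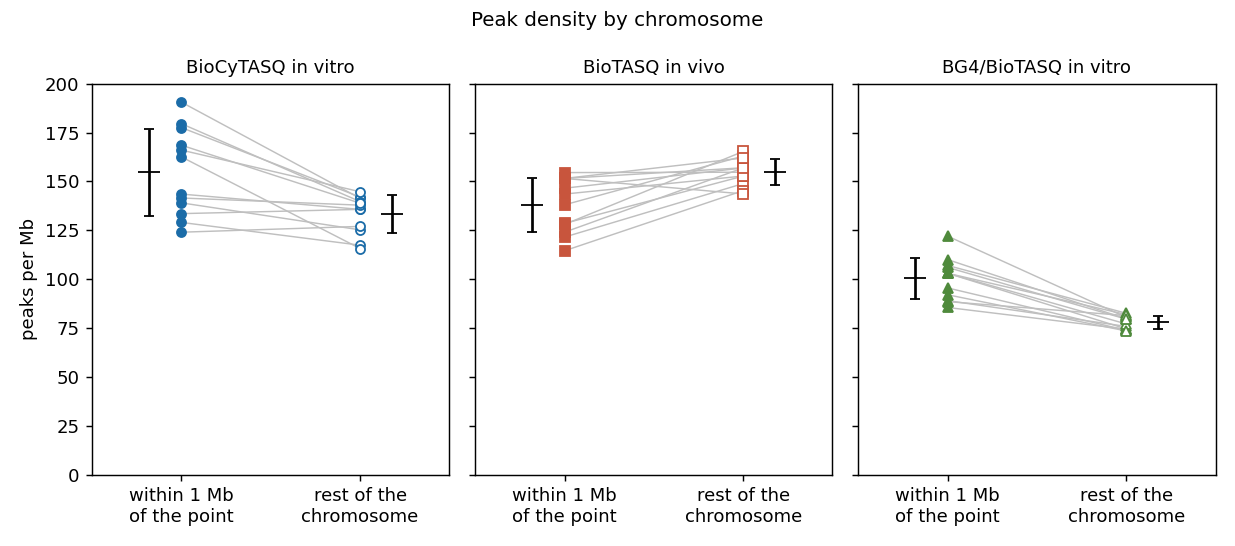
Peaks per Mb within 1 Mb of the point (filled) and in the rest of the same chromosome (open) for each list; grey lines join the values of a chromosome, and the black bars are means with SD over 12 chromosomes. Both in vitro lists average more in the windows (155 against 133 and 100.4 against 77.9), BioTASQ in vivo less (138 against 155).

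The opposite directions were tested directly. The log2 ratio of BioCyTASQ in vitro exceeded that of BioTASQ in vivo by 0.38 (SD 0.15, on 12 of 12 chromosomes, exact p = 0.000488, and 0.000732 adjusted over 3 pairs of lists). These lists differ in both bait and condition. With the neighbouring 1 to 3 Mb in place of the rest, the difference was 0.16 (SD 0.24, above 0 on 10 of 12 chromosomes, adjusted p = 0.0688, exact), which missed the threshold. The ratio of BioTASQ in vivo was below that of the BG4/BioTASQ list by 0.53 on the log2 scale (difference −0.53, SD 0.16, on 12 of 12 chromosomes, p = 0.000488, exact, adjusted p = 0.000732). It was −0.26 against the neighbouring 1 to 3 Mb (SD 0.19, adjusted p = 0.00732, exact). BioCyTASQ minus BG4/BioTASQ gave −0.16 (SD 0.25, adjusted p = 0.0518, exact), which missed the threshold of 0.05 and passed it in 5 of 6 alternatives.

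Chromosome 4 showed the widest split between BioCyTASQ in vitro and BioTASQ in vivo. Its window had 177.5 BioCyTASQ peaks per Mb against 142 in the rest of the chromosome, and 128 in vivo peaks per Mb against 165.3, the lowest in vivo ratio of any chromosome (log2 −0.37). BioCyTASQ reached its highest ratio on chromosome 3 (162.5 in the window and 116 in the rest, log2 0.49) and its lowest on chromosome 11 (124 and 127, log2 −0.03). The in vivo list was denser in the window only on chromosome 12, with 151.5 peaks per Mb against 144 in the rest (log2 0.08), and on chromosome 3 its values were 154.5 and 154.7. The BG4/BioTASQ list had its highest ratio on chromosome 9 (122 in the window and 80.4 in the rest, log2 0.60), where the point lies near the chromosome end, and its lowest on chromosome 5 (88.5 and 81.3, log2 0.12). Chromosome 5 thus held the lowest BG4/BioTASQ ratio and the second highest BioCyTASQ ratio (190.5 in the window and 141 in the rest, log2 0.43).

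**Figure D2:**
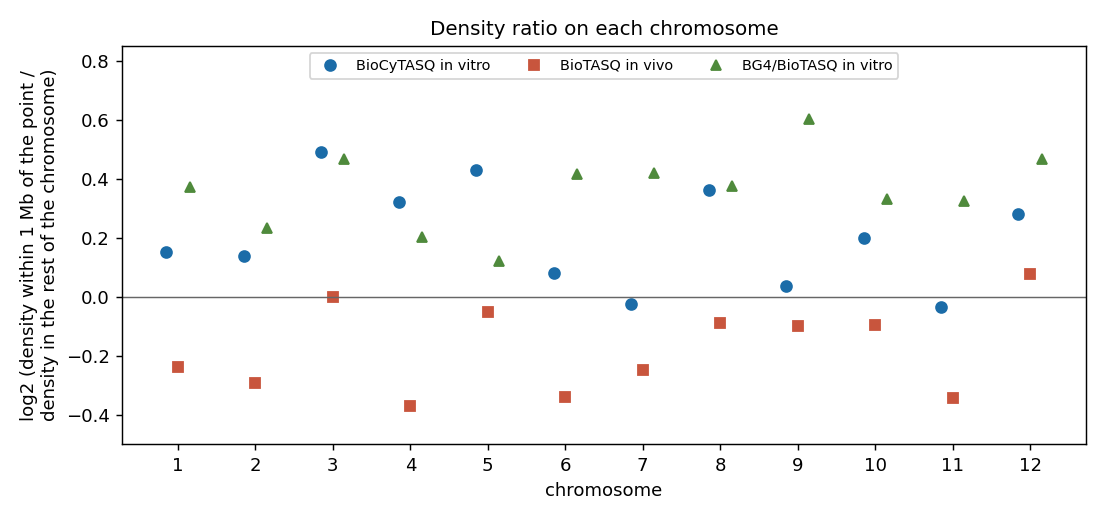
Log2 ratio of the density within 1 Mb of the point to the density in the rest of the chromosome, by chromosome, for BioCyTASQ in vitro (circles), BioTASQ in vivo (squares) and the BG4/BioTASQ list (triangles). On every chromosome the in vivo value is the lowest of the 3, from −0.37 on chromosome 4 to 0.08 on chromosome 12.

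Bases covered by peaks followed the counts. BioCyTASQ in vitro peaks covered 8.73% ± 1.47 of the windows and 7.26% ± 0.557 of the rest (9 of 12 chromosomes higher, adjusted p = 0.00391, exact). BioTASQ in vivo peaks covered 5.75% ± 0.646 and 6.65% ± 0.313 (11 of 12 lower, adjusted p = 0.00146, exact). BG4/BioTASQ peaks covered 3.04% ± 0.359 and 2.15% ± 0.112 (12 of 12 higher, adjusted p = 0.00146, exact). Both in vitro calls were lost against the neighbouring 1 to 3 Mb: the difference was −0.215 percentage points for BioCyTASQ (adjusted p = 0.639, exact) and 0.266 for BG4/BioTASQ (adjusted p = 0.0579, exact). Median peak width in the windows and in the rest was 246 ± 13.4 and 227 ± 4.14 bp for the BG4/BioTASQ list, wider on 12 of 12 chromosomes (adjusted p = 0.00146, exact). It was 432 ± 29.2 and 412 ± 5.09 bp for BioCyTASQ in vitro (adjusted p = 0.0586, exact) and 345 ± 14.0 and 342 ± 6.20 bp for BioTASQ in vivo (adjusted p = 0.498, exact), neither past the threshold.

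Against the stretches 1 to 3 Mb from the points in place of the whole rest, the picture changed for the in vitro lists and not for the in vivo list. BioTASQ in vivo had 138 peaks per Mb in the windows and 160.2 in these neighbouring stretches (log2 ratio −0.22, SD 0.17, lower on 12 of 12 chromosomes, p = 0.000488, exact, adjusted p = 0.00146). BioCyTASQ in vitro had 155 and 162 (log2 −0.06, SD 0.23, adjusted p = 0.387, exact), and the BG4/BioTASQ list 100.4 and 97.3 (log2 0.04, SD 0.17, adjusted p = 0.387, exact). With windows of 2 Mb to each side the in vitro ratios to the rest were 0.25 and 0.38, above 0 on 12 of 12 chromosomes in both lists. The in vivo ratio was then −0.05 (adjusted p = 0.174, exact). With windows of 0.5 Mb to each side the in vivo ratio was −0.26 (adjusted p = 0.00806, exact) and the BG4/BioTASQ ratio 0.35 (adjusted p = 0.00439, exact), whereas the BioCyTASQ ratio of 0.14 (higher on 9 of 12 chromosomes, adjusted p = 0.0713, exact) missed the threshold. The in vitro ratios were thus no smaller in the wider windows, whereas the in vivo ratio lay closer to 0 there. At the edge of the windows, the last 100 kb inside and the first 100 kb outside held 379 and 375 BioCyTASQ peaks, 362 and 399 in vivo peaks, and 235 and 230 BG4/BioTASQ peaks.

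Inside the windows, the density of the BioCyTASQ and the in vivo lists dipped next to the point. Within 250 kb of the points and at 250 kb to 1 Mb, after adding 1 peak per Mb, the means were 128 ± 29.4 and 165 ± 27.1 peaks per Mb for BioCyTASQ (log2 ratio −0.37, SD 0.36, lower on 10 of 12 chromosomes, adjusted p = 0.00952, exact). For BioTASQ in vivo they were 116 ± 29.4 and 146 ± 13.2 (log2 −0.37, SD 0.34, lower on 11 of 12, adjusted p = 0.00952, exact). The BG4/BioTASQ list had 100.2 ± 23.2 and 102 ± 9.29 (log2 −0.05, SD 0.31, adjusted p = 0.576, exact), and whether this differs from the other lists was not tested. Chromosome 10 went the other way in both lists that dipped, with 197 BioCyTASQ peaks per Mb near the point against 157 farther out, and 185 in vivo peaks per Mb against 142. For BioCyTASQ the dip within 100 kb was −0.46 (adjusted p = 0.0630, exact).

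The lowest bin lay on one side of the point. In the 200 kb just above the point, toward higher coordinates, the mean was 96.7 ± 65.0 BioCyTASQ peaks per Mb and 86.2 ± 53.3 in vivo peaks per Mb, the lowest of 30 bins of 200 kb within 3 Mb in both lists. In the 200 kb just below the point it was 149.6 ± 28.4 and 134 ± 25.1. The BG4/BioTASQ list had 84.6 ± 39.5 above and 112 ± 25.5 below. Single chromosomes ranged from 30 to 260 BioCyTASQ peaks per Mb and from 30 to 220 in vivo peaks per Mb in the bin above the point, so the mean does not describe every chromosome. The points are given to 0.1 Mb, which limits what these bins can resolve.

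**Figure D3:**
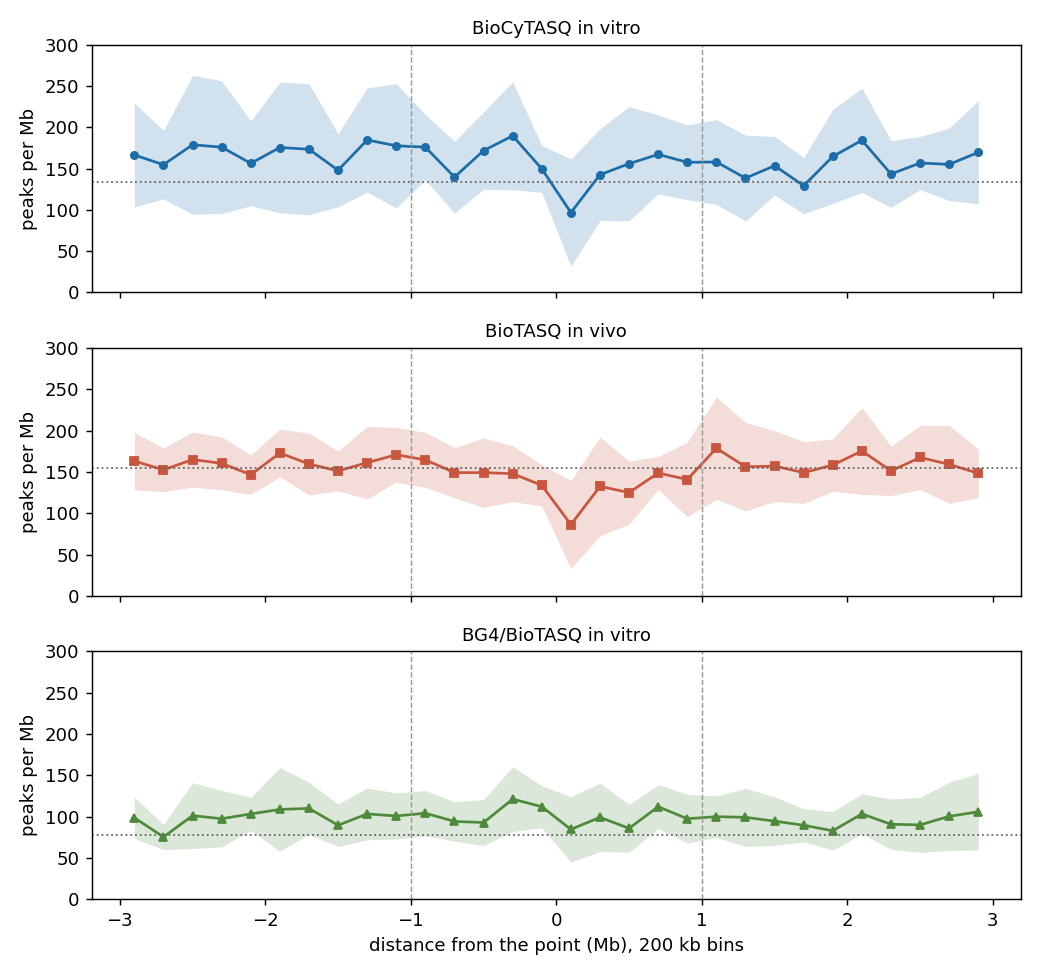
Mean peaks per Mb in 200 kb bins by distance from the point, with a band of 1 SD over 12 chromosomes (11 in the leftmost bin); dashed lines mark the windows and the dotted line the mean in the rest of the chromosomes. In BioCyTASQ in vitro and BioTASQ in vivo the lowest bin lies just above the point (96.7 and 86.2 peaks per Mb); both in vitro lists stay above the dotted line over most of the 3 Mb to each side.

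Some of the longest stretches without a peak of any list lay in the same place. The longest one inside each window ran from 29165 to 275956 bp (median 38952 bp), against 40102 to 106281 bp (median 67748 bp) for the longest in the rest of each chromosome. The rest of each chromosome is far longer than its window, so these maxima do not compare like with like. On chromosomes 5, 7 and 11 the longest stretch of the chromosome lay inside the window. The 3 longest were on chromosome 11 (12278908 to 12554863), on chromosome 7 (12142220 to 12244401, 102182 bp) and on chromosome 5 (12451384 to 12545903, 94520 bp). On chromosomes 1, 4, 5 and 7 the longest stretch of the window was centred 92.5 to 98.6 kb above the point, inside the bin with the lowest mean. Whether these stretches could be mapped or were assembled was not analysed here. The peak names, which number the peaks of a list in order of position, show whether called peaks had been removed. A missing number can be placed only between neighbouring peaks of its own list, which can lie outside the stretch. Across the chromosome 11 stretch 0 numbers were missing in BioCyTASQ in vitro and in BioTASQ in vivo, and 5 in the BG4/BioTASQ list. Across the chromosome 7 stretch 0, 0 and 2 were missing, and across the chromosome 5 stretch 0, 2 and 3. Typical gaps were shorter in the windows, with a median of 1236 to 2025 bp by chromosome against 1854 to 2347 bp in the rest. Shorter median gaps need not mean denser regions: the windows, 6.43% of the span, held 5765 of 87915 regions merged over the lists.

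Peaks around the centromeres had lower fold enrichment in all 3 lists. The fold enrichment was computed by the authors for each peak against its control, so it is set side by side within a list only. In BioCyTASQ in vitro the median was 3.35 to 3.71 in the windows (median of chromosomes 3.49) and 3.74 to 4.16 in the rest (3.88), and the groups did not overlap. The log2 ratio was −0.17 (SD 0.07, lower on 12 of 12 chromosomes, p = 0.000488, exact, adjusted p = 0.00146). In BioTASQ in vivo the means of the medians were 4.27 ± 0.110 and 4.41 ± 0.0344 (log2 −0.05, lower on 11 of 12, adjusted p = 0.00439, exact). In the BG4/BioTASQ list they were 4.69 ± 0.161 and 4.81 ± 0.0628 (log2 −0.04, lower on 8 of 12, adjusted p = 0.0225, exact), a fall that missed the threshold against the neighbouring 1 to 3 Mb (adjusted p = 0.307, exact). Of the BioCyTASQ peaks in the windows, 13.9% (517) belonged to the strongest 20% of the list by fold enrichment and 25.1% (932) to the weakest 20%. The shares were 17.8% and 24.3% for BioTASQ in vivo, and 17.97% and 22.8% for the BG4/BioTASQ list.

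The fold enrichment has a numerator and a denominator, and both differed in BioCyTASQ. The median pileup, which counts fragments over the summit, was 55.4 ± 4.44 in the windows and 61.2 ± 1.90 in the rest (log2 −0.15, lower on 10 of 12 chromosomes, adjusted p = 0.00586, exact). The median control level, the number expected from the control there, was 13.1 ± 0.593 and 12.2 ± 0.191 fragments (log2 0.09, higher on 11 of 12, adjusted p = 0.00659, exact). In BioTASQ in vivo the pileup was 74.6 ± 1.40 and 76.7 ± 0.492 (log2 −0.04, adjusted p = 0.00293, exact) and the control level 16.4 ± 0.361 and 16.1 ± 0.0860 (log2 0.02, adjusted p = 0.0488, exact). In the BG4/BioTASQ list the approximate levels were 22.9 ± 0.817 and 24.1 ± 0.638 fragments of pileup (log2 −0.07, adjusted p = 0.00146, exact), and 3.67 ± 0.171 and 3.82 ± 0.0518 fragments of control (log2 −0.06, adjusted p = 0.00659, exact). The control level therefore moved up in the windows of the first 2 lists. In the third the approximate level moved down, and the error of these approximate levels was not tested. The in vivo medians lay close to the lowest level of that list, 15.7 fragments, which was the window median on chromosomes 4 and 5. Small shifts of such medians say little about the control. Against the neighbouring 1 to 3 Mb the control level differed by at most 0.01 on the log2 scale in the 3 lists (adjusted p = 0.993 in each, exact). The pileup differences there were −0.09 for BioCyTASQ (adjusted p = 0.229, exact) and −0.00212 for BG4/BioTASQ (adjusted p = 0.928, exact), neither past the threshold, and −0.04 for the in vivo list (adjusted p = 0.0117, exact). The part of the control level in the density of peaks was not tested.

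Called peaks had been removed from every list before deposit, and the in vivo ratio was as far below 0 with them counted: 27.6% of the in vivo peak numbers were missing in the windows and 29.7% in the rest, and with the missing peaks counted the log2 ratio was −0.21 (adjusted p = 0.000977, exact). Missing numbers made up 5.98% in the windows and 3.88% in the rest for BioCyTASQ in vitro, with a ratio of 0.23 when they were counted. They made up 3.29% and 0.391% for the BG4/BioTASQ list, where 82 numbers were missing in the windows and 106 in all the rest, and the ratio became 0.40. Rows whose summit lay beyond their end, and which had thus been shortened after calling, were 20.1% of in vivo rows in the windows and 23.1% in the rest, and 2.02% and 2.01% of BioCyTASQ rows.

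The strongest window peaks of BioCyTASQ in vitro lay on chromosome 12 at 11049977 to 11050565 with a fold enrichment of 17.7, on chromosome 11 at 12098805 to 12099107 with 17.1, and on chromosome 4 at 9469986 to 9472450 with 16.4. They ranked 7, 16 and 35 in the whole list. The chromosome 11 peak lay 99.0 kb above the point, and the chromosome 4 peak 229 kb below it. All 3 were also BioTASQ in vivo peaks, and none was in the BG4/BioTASQ list.

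The strongest BioTASQ in vivo peaks lay on chromosome 5 at 12213226 to 12213691 with a fold enrichment of 10.6, on chromosome 10 at 8339309 to 8339868 with 9.91, and on chromosome 11 at 11595386 to 11596039 with 9.46, ranks 20, 32 and 40 of the list. The first 2 were peaks of both other lists and the third of neither. The chromosome 10 peak lay 139.6 kb above the point of the chromosome whose in vivo density rose toward the point.

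In the BG4/BioTASQ list the strongest peaks were on chromosome 2 at 12753541 to 12754309 with 16.04, on chromosome 7 at 12895683 to 12896166 with 15.0, and on chromosome 6 at 14819096 to 14819603 with 14.8, ranks 21, 36 and 42. The first 2 lay on peaks of both other lists and the third on none. The widest peaks were a BioCyTASQ peak of 4517 bp on chromosome 12 (11032728 to 11037244, fold enrichment 10.4), an in vivo peak of 2571 bp on chromosome 5 (12006647 to 12009217, 6.21) and a BG4/BioTASQ peak of 1207 bp on chromosome 12 (12145758 to 12146964, 6.97).

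Overlap between the lists was also different around the centromeres, where a single base in common was enough to count a peak as shared (minimum 1 bp). Sharing with the BG4/BioTASQ list was higher. Of the BioCyTASQ window peaks 1219 of 3710 lay on a BG4/BioTASQ peak, against 23.2% of all BioCyTASQ peaks. By chromosome that was 33.1% ± 4.23 in the windows and 22.7% ± 1.98 in the rest, a mean difference of 10.4 percentage points (SD 4.29, higher on all 12 chromosomes, exact p = 0.000488, and 0.000732 adjusted over 6 overlaps). Chromosome 3 had the largest difference, 39.7% in the window and 19.3% in the rest. Of the in vivo window peaks 912 of 3307 lay on a BG4/BioTASQ peak, against 18.1% of all in vivo peaks, 27.6% ± 4.21 in the windows and 17.8% ± 1.69 in the rest (9.74 points, 12 of 12 higher, adjusted p = 0.000732, exact).

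Sharing between BioCyTASQ in vitro and BioTASQ in vivo moved in opposite ways for each list. Of the BioCyTASQ window peaks 1962 of 3710 lay on an in vivo peak, against 60.3% of all BioCyTASQ peaks. The shares were 52.8% ± 3.45 in the windows and 60.8% ± 2.31 in the rest (−7.94 points, SD 4.72, lower on 11 of 12, exact p = 0.000977, adjusted p = 0.00117). Of the in vivo window peaks 2095 of 3307 lay on a BioCyTASQ peak, against 55.9% of all in vivo peaks. The shares were 63.1% ± 6.32 in the windows and 55.7% ± 2.47 in the rest (7.39 points, SD 5.64, higher on 12 of 12, adjusted p = 0.000732, exact). Chromosomes 4 and 5 stood highest, with 73.05% and 74.9% in their windows against 55.3% and 56.5% in the rest. BioCyTASQ peaks around the centromeres were thus less often in vivo peaks, and the fewer in vivo peaks found there were more often BioCyTASQ peaks.

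Of the BG4/BioTASQ window peaks 1306 of 2409 lay on a BioCyTASQ peak, against 42.1% of the whole list, and 944 on an in vivo peak, against 36.6%. The first share was 54.4% ± 7.48 in the windows and 41.6% ± 4.73 in the rest (12.8 points, SD 9.10, higher on 12 of 12, adjusted p = 0.000732, exact), with 66.02% on chromosome 3 against 32.5%. The second was 39.01% ± 4.34 and 36.6% ± 1.81 (2.45 points, 9 of 12 higher, adjusted p = 0.0859, exact), and its direction depended on the setting.

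Overlap by placement alone rises with the bases that the partner list covers, and these moved in the same direction as the 5 shares past the threshold: 8.73% of the windows and 7.26% of the rest for the BioCyTASQ list, 5.75% and 6.65% for the in vivo list, and 3.04% and 2.15% for the BG4/BioTASQ list. Their part in the shares was not tested. Against the neighbouring 1 to 3 Mb none of the 6 differences passed the threshold after adjustment. The shares in the windows and in the neighbouring stretches were then 33.1% and 29.6% for BioCyTASQ peaks in the BG4/BioTASQ list (adjusted p = 0.0703, exact) and 52.8% and 56.8% for BioCyTASQ peaks in the in vivo list (adjusted p = 0.106, exact).

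**Figure D4:**
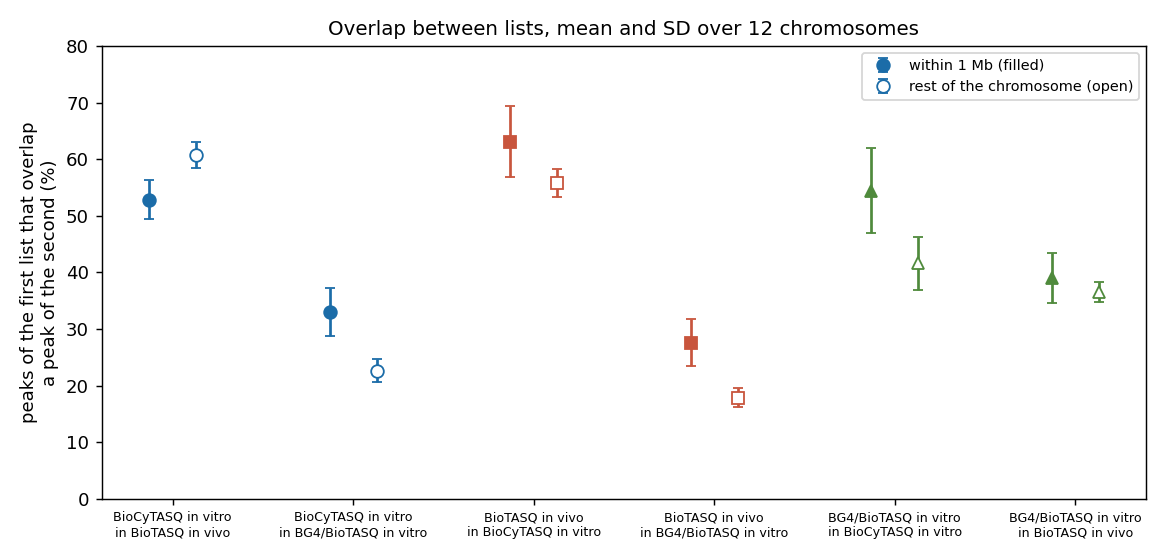
Percent of the peaks of a first list that overlap a second list by at least 1 bp, within 1 Mb of the points (filled) and in the rest of the chromosomes (open), as mean and SD over 12 chromosomes. BioCyTASQ peaks were less often in vivo peaks in the windows (52.8% against 60.8%), whereas 4 of the other overlaps were higher there past the threshold.

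Stronger peaks were more often shared in the pairs that hold the in vivo list, in the windows and in the rest alike, given here as a description. With each place divided at its own median fold enrichment, the stronger and the weaker BioCyTASQ peaks were in vivo peaks in 68.7% and 37.1% in the windows, against 75.9% and 46.0% in the rest. For BG4/BioTASQ peaks these shares were 49.3% and 29.1% in the windows, against 40.2% and 32.6% in the rest. In vivo peaks were BioCyTASQ peaks in 77.98% and 48.7% in the windows, against 66.9% and 44.1% in the rest. They were BG4/BioTASQ peaks in 35.6% and 19.6% in the windows, against 20.9% and 14.3% in the rest. For BioCyTASQ peaks that met a BG4/BioTASQ peak the order was the other way round in both places, 29.3% and 36.4% in the windows against 16.6% and 28.3% in the rest. For BG4/BioTASQ peaks that met a BioCyTASQ peak the shares were nearly equal in the windows, 53.9% and 54.6%. In the rest they were 36.7% and 45.2%.

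Merging the lists into regions gave 5765 regions around the centromeres and 82150 in the rest. Overlapping peaks were joined in a chain, so peaks of different lists in a region need not share a base. Regions held by BioTASQ in vivo alone were fewer, and regions with both in vitro lists more frequent. The shares of the 7 kinds add up to the whole and can shift with the densities of the lists, whose part was not tested. By chromosome, 17.8% ± 3.17 of the window regions and 25.4% ± 2.21 of the regions in the rest held an in vivo peak alone (−7.67 points, SD 2.52, lower on all 12 chromosomes, exact p = 0.000488, and 0.00114 adjusted over 7 kinds). They numbered 1019 in the windows, against 25.2% of all regions. Chromosomes 4 and 5 had the largest deficits, 13.4% and 12.4% in their windows against 26.8% and 24.2% in the rest.

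Regions with a peak of every list numbered 757 in the windows, against 9.07% of all regions. They made up 13.1% ± 2.1 of the window regions and 8.91% ± 0.910 of the rest (4.19 points, SD 2.1, 12 of 12 higher, adjusted p = 0.00114, exact). Regions of both in vitro lists without an in vivo peak numbered 473, against 4.45% of all, and made up 8.21% ± 1.37 and 4.3% ± 0.784 (3.91 points, SD 1.56, 12 of 12 higher, adjusted p = 0.00114, exact). Regions of BioCyTASQ alone numbered 1266, against 18% of all, with shares of 21.9% ± 3.05 and 17.9% ± 1.60 (adjusted p = 0.00513, exact). Regions that both BioCyTASQ and the in vivo capture held, and BG4/BioTASQ did not, numbered 1180, against 24.6% of all, with 20.3% ± 3.62 and 24.8% ± 0.730 (lower on 10 of 12, adjusted p = 0.00547, exact). The remaining kinds did not pass the threshold: 3.24% ± 1.08 and 3.63% ± 0.269 for BioTASQ in vivo with the BG4/BioTASQ list (185 regions, against 3.61% of all, adjusted p = 0.272, exact), and 15.4% ± 3.41 and 15.05% ± 1.33 for the BG4/BioTASQ list alone (885 regions, against 15.1%, adjusted p = 0.716, exact). Against the neighbouring 1 to 3 Mb none of these differences passed after adjustment. The share of in vivo regions alone was then 17.8% in the windows and 20.6% in the neighbouring stretches (adjusted p = 0.0889, exact).

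**Figure D5:**
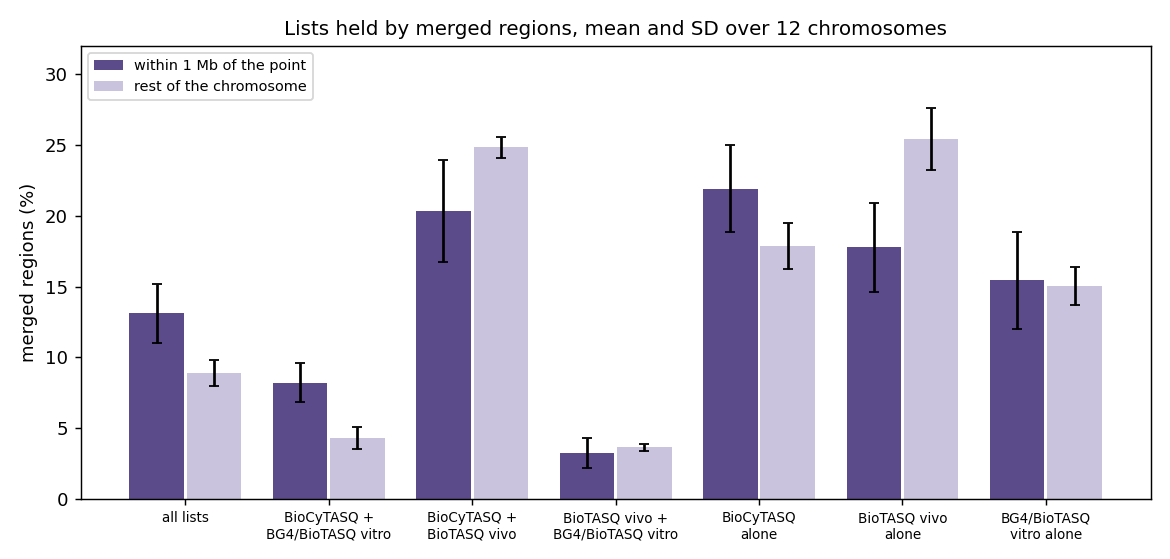
Share of merged regions that hold peaks of the named lists, within 1 Mb of the points (dark bars) and in the rest of the chromosomes (light bars), with SD over 12 chromosomes. Regions of BioTASQ in vivo alone make up 17.8% against 25.4%, and regions of both in vitro lists without an in vivo peak 8.21% against 4.3%.

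Each window held a merged region with a peak of every list. Each peak's rank by fold enrichment was divided by the length of its list, and regions were ordered by the mean of these relative ranks. The best lay on chromosome 4 at 10202102 to 10202689, 502 kb above the point, with fold enrichments of 7.29 in the BioCyTASQ list, 6.63 in the in vivo list and 11.8 in the BG4/BioTASQ list. The next was on chromosome 6 at 16168103 to 16169735 with 7.80, 6.45 and 8.11, and the third on chromosome 9 at 1948139 to 1950346 with 6.27, 5.85 and 12.1. On chromosomes 6 and 9 the BioCyTASQ and BG4/BioTASQ peaks shared no base and were joined by the in vivo peak. The best region of chromosome 7 was joined likewise. On the 12 chromosomes the best such regions were 588 to 2208 bp wide. Their fold enrichments were 4.02 to 12.01 for BioCyTASQ (median 6.26), 5.46 to 6.88 for BioTASQ in vivo (median 5.94) and 5.11 to 12.1 for the BG4/BioTASQ list (median 8.09). The highest BioCyTASQ value among them, 12.01, belonged to the region on chromosome 8 at 12913866 to 12915002, only 14.4 kb from the point. The 12 regions were chosen for high ranks, so these values are a description.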

How the data were processed

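Peaks were analysed from the lists of 3 capture groups of 2 libraries each. The submitters' processing notes name MACS2 2.1.1, SAMtools 1.5, Picard, BWA and Trim Galore 0.4.4, with no roles. Which build, control and threshold lie behind each list, and whether replicates were pooled, the sources used here do not give. All 4 deposited lists have 10 columns without a header, in the column order of MACS2 narrow peaks. Fold enrichment, a ratio of peak to control, was computed by the authors. The deposited −log10 p and −log10 q come from the authors' caller, and the deposited score was not used.

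Repeated rows (26, BG4/BioTASQ list) were dropped. Chromosome lengths were the largest peak end in any list, and coordinates count from 1. Per-chromosome values were compared by exact sign-flip permutation over 4096 sign assignments, adjusted by Benjamini-Hochberg within each kind of measure. Fold enrichment and −log10 p were solved for pileup and control level under a Poisson model. The solved pileup was whole in 100% of rows of the BioCyTASQ list and of the in vivo list, within 0.001 on the −log10 p scale, and for 0.333% of BG4/BioTASQ rows, whose levels are approximate. Steps were tested on simulated data. Named were, in the windows, the 3 peaks of highest fold enrichment per list (at most 1 per 100 kb), the widest peak per list, the 3 best regions with peaks of every list, the 3 longest stretches without a peak, and the chromosomes with the extreme density ratios; other chromosomes and the chromosome 8 region were singled out after their values were seen. Windows, measures and lists were chosen with earlier results of these data known. Merged kinds, pileup, peak numbers and distance bins were added after the data were examined. Software was SciPy 1.17.1, pandas 2.3.3, NumPy 2.4.6, Matplotlib 3.10.9 and Python 3.11.15.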

Additional observations from a re-analysis of the deposited data

Results flagged for a closer look

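The relation of window density to the rest of the chromosome differed between lists by a direct test. The log2 ratio of BioCyTASQ in vitro minus that of BioTASQ in vivo came to 0.38 (SD 0.15, above 0 on 12 of 12 chromosomes, exact p = 0.000488). The log2 ratio of BioTASQ in vivo minus that of the BG4/BioTASQ list was −0.53 (SD 0.16, negative on 12 of 12 chromosomes, p = 0.000488, exact). Against the neighbouring 1 to 3 Mb in place of the rest, the first difference was 0.16 (adjusted p = 0.0688, exact) and missed the threshold, and the second was −0.26 (adjusted p = 0.00732, exact). With the missing peak numbers counted as peaks, the differences were 0.44 and −0.61, each in its direction on 12 of 12 chromosomes (exact p = 0.000488). BioCyTASQ in vitro and BioTASQ in vivo differ in bait and in condition, which cannot be told apart, and the capture behind the BG4/BioTASQ rows cannot be told.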

How the results depend on the processing

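No paired analysis was possible because the lists carry no replicate columns, and leaving out a replicate could not be run for the same reason. The share of peaks with a G-quadruplex motif was not run, since it needs a genome of the build behind the lists. Of 144 alternatives over 37 results, 100 kept direction and side of the threshold; for those that did not, the cause was not tested. Values are log2 ratios for density, fold, control level, pileup and width, and percentage points for coverage, shares and kinds.

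Against the neighbouring 1 to 3 Mb, density was −0.0645 for BioCyTASQ and 0.0433 for BG4/BioTASQ, and BioCyTASQ minus in vivo 0.16. Coverage was −0.215 for BioCyTASQ and 0.266 for BG4/BioTASQ. Fold was −0.0169 for BG4/BioTASQ. The control level was 0.0109 for BioCyTASQ, −0.000359 for in vivo and −0.000156 for BG4/BioTASQ, and the pileup −0.0868 for BioCyTASQ and −0.00212 for BG4/BioTASQ. Shares were −4.01 for BioCyTASQ in the in vivo list, 3.47 for BioCyTASQ in BG4/BioTASQ, 2.51 for in vivo in BioCyTASQ, 3.08 for in vivo in BG4/BioTASQ, and 2.64 and −2.55 for BG4/BioTASQ in BioCyTASQ and in vivo. Kinds were 0.916 for all lists, −2.46 for BioCyTASQ with in vivo, 1.47 for both in vitro lists, 1.65 for BioCyTASQ alone and −2.86 for in vivo alone.

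With windows of 0.5 Mb to each side, BioCyTASQ density was 0.14, BioCyTASQ minus BG4/BioTASQ density −0.21, in vivo width −0.0186, BG4/BioTASQ fold −0.0534, control level 0.0212 for in vivo and −0.0491 for BG4/BioTASQ, BG4/BioTASQ pileup −0.0138, and its share in the in vivo list −0.114. With 2 Mb, in vivo density was −0.0468 and pileup −0.0175, BioCyTASQ minus BG4/BioTASQ density −0.12, BioCyTASQ width 0.0764, the share of BG4/BioTASQ in the in vivo list 4.73, and the kinds in vivo with BG4/BioTASQ 0.0962 and BG4/BioTASQ alone −0.719.

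BioCyTASQ density was −0.12 with the stronger peaks alone. BioCyTASQ minus BG4/BioTASQ density was −0.17 at a −log10 q of at least 3, −0.41 with every list trimmed to its 29443 strongest peaks and −0.17 with missing peak numbers counted, the last added after the data were examined. The share of BG4/BioTASQ in the in vivo list was 4.11 at 50% of the shorter peak and 1.94 at 50% reciprocal overlap. The BioCyTASQ dip within 100 kb was −0.46. Depth is unknown for single libraries, so a region without a peak may hold capture below the callers' threshold.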
